A study of Mus musculus with 12 samples.

Results

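The smooth muscle contractile genes are a set of 10 genes, Myl9, Acta2, Tagln, Myh11, Cnn1, Des, Smtn, Rgs5, Mrvi1 and Actg2, read by every array probe annotated to one of them. They were covered by 21 of the 45281 probes, and 12 of these 21 gave a signal above background on at least 4 of the 12 arrays. Those 12 probes stood for 6 genes (Myl9, Acta2, Des, Smtn, Rgs5 and Mrvi1), while no probe of Tagln, Myh11, Cnn1 or Actg2 met that limit. Kidneys were compared between 6 mice given colistin, a polymyxin antibiotic whose use is limited by kidney toxicity, at 16 mg/kg per day split into 2 doses, and 6 mice given 0.1% saline 2 times a day. All 12 mice were male C57BL/6, aged 10 weeks, and the exposure lasted 72 hours. Total kidney RNA was hybridised to Illumina MouseWG-6 v2 BeadChips, single-colour arrays on which each probe is read by its own beads, with 3 mice of each group on each of 2 BeadChips. The genes were selected on their differences between colistin and saline mice in these same arrays, so those differences are a description and carry no p-value.

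Smooth muscle cells shorten when myosin, activated by phosphorylation of its regulatory light chain, pulls on actin filaments. Calcium drives that phosphorylation, and signals through cyclic GMP lower calcium and relax the cell. In the kidney such cells line the arteries and arterioles and the wall of the pelvis, and pericytes and mesangial cells share many of their genes. Many contractile genes are regulated by serum response factor, which binds a DNA element called the CArG box together with its partner myocardin.

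The promoters of Myl9, Des and Mrvi1, the 3 genes with a probe called lower in colistin mice, are printed with that of Acta2, which had no called probe, to show which carry the CArG element. RefSeq sequences on build GRCm38.p6, running from 250 bases before to 50 bases after the annotated start, were found for 7 of the 10 genes (8 promoters). The CArG box was searched on both strands as CC, 6 bases that are each A or T, and GG, and the CArG-like element as the same with at most 1 of the 6 inner bases being C or G. Capitals mark either kind. The Myl9 promoter is at chr2:156775214-156775513 on the plus strand, and those of Des, Mrvi1 and Acta2 are at chr1:75360042-75360341 (plus), chr7:110982412-110982711 (minus, 1 of the gene's 2 starts) and chr19:34255324-34255623 (minus).
Myl9: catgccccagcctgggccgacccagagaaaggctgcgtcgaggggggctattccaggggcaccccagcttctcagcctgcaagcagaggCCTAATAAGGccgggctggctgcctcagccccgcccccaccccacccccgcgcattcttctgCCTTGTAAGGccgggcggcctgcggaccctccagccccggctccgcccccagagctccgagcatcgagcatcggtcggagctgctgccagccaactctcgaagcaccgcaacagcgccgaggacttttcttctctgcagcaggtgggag
Des: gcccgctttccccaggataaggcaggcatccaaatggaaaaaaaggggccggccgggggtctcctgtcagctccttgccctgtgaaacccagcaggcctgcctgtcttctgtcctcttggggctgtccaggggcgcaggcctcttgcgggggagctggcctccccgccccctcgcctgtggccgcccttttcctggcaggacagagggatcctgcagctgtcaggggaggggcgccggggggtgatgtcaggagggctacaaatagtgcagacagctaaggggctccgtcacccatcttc
Mrvi1: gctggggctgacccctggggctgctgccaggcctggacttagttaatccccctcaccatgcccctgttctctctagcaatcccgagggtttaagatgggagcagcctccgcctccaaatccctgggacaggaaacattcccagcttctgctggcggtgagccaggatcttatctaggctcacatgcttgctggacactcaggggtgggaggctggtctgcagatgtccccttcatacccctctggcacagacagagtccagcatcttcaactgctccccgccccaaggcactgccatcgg
Acta2: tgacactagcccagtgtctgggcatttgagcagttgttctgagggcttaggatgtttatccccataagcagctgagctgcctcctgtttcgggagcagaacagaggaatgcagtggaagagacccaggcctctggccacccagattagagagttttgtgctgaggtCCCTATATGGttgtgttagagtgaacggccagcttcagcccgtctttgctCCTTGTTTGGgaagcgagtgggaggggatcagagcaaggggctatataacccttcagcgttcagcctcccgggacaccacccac
Myl9 held a CArG box, CCTAATAAGG, 161 bases before its start, and a CArG-like element, CCTTGTAAGG, 99 bases before it. Acta2 held 2 CArG-like elements, CCCTATATGG at 84 bases and CCTTGTTTGG at 34 bases before its start. Neither kind was in these windows of Des, Mrvi1, Smtn, Rgs5 or Cnn1. Of all 32851 mouse promoters of this length, 1.629% held a CArG box and 9.984% at least 1 element of either kind. The MCAT element (CATTCC), which TEAD factors bind, was in the promoters of Acta2, Smtn and Mrvi1 and in 14.66% of all, and the E-box (CANNTG) was in 72.31% of all. A match is a run of letters and does not show binding.

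The arrays detected 14679 to 15870 probes in colistin mice and 14661 to 16154 in saline mice. Several saline arrays stood apart. Saline mouse 2 lay farthest out on the first principal component (49.2% of the variance), saline mouse 5 had the dimmest array, and saline mouse 1 had the highest signals of Acta2 and of the fat cell gene Cfd. Colistin mice occupied the same 3 positions on both BeadChips and saline mice the other 3, so an effect of position cannot be told apart from one of colistin. Across all 16179 probes above background, limma called 74 (0.457%) at an adjusted p under 0.05, and 22 (0.136%) were called lower in colistin mice. Of the 12 smooth muscle probes, 3 were called, and all 3 were lower in colistin mice: Myl9, Mrvi1 and Des. At 4 of the 12, all colistin mice lay below all saline mice after normalisation, which held for 65 of all probes (0.402%). The brightest probes of the 6 measured genes had a median log2 difference, colistin minus saline, of -0.59, and all 12 probes one of -0.45, against 0.01 over all probes. Since the genes were chosen for this contrast, nothing is read from these shares. RNA came from whole kidneys, in which fewer cells of a type and less RNA per cell cannot be told apart.

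Myl9, the regulatory light chain of smooth muscle myosin, fell in colistin mice. Its brighter probe, ILMN_2718662, had log2 signals of 6.21 at the lowest, 6.50 at the median and 6.64 at the highest in colistin mice, against 7.01, 7.39 and 7.70 in saline mice. In normalised signal the groups did not overlap, and the highest colistin mouse lay below the lowest saline mouse. The means were 6.47 ± 0.17 in colistin mice and 7.37 ± 0.22 in saline mice (SD, n = 6 each), a difference of -0.91 ± 0.12 (SE), or 1.87-fold lower. The second probe, ILMN_2652458, was dimmer, with 5.36, 5.52 and 5.79 in colistin mice against 5.85, 6.09 and 6.32 in saline mice. These did not overlap either, and the difference of -0.52 ± 0.11 (SE) was not called. Before normalisation the groups overlapped at both probes. Saline mouse 5, whose array was the dimmest, had the lowest raw signal of all mice, at 157.2 and 109. The lowest colistin values were 158.2 and 118.2.

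The 2 other genes with a called probe belong to the regulation and the scaffold of the contractile cell. Mrvi1 (also called Irag1, chromosome 7) encodes the protein through which cyclic GMP-dependent kinase restrains calcium release by the inositol trisphosphate receptor. Its detected probe, ILMN_2746283, had 5.44, 5.60 and 5.79 log2 signal in colistin mice against 6.15, 6.26 and 6.73 in saline mice (lowest, median, highest). All colistin mice were lower than all saline mice, and the difference was -0.72 ± 0.11 (SE), or 1.65-fold lower. The other 2 Mrvi1 probes were above background on 0 arrays. Des (chromosome 1) encodes desmin, the intermediate filament of muscle cells, which mesangial cells also carry in rodents. Its probe had 5.35, 5.51 and 5.59 in colistin mice against 5.79, 6.10 and 6.27 in saline mice, with no overlap and a difference of -0.56 ± 0.11 (SE), or 1.47-fold lower. Before normalisation saline mouse 5 had the lowest raw signal of all mice at the Mrvi1 and Des probes, at 116.2 and 113.1. The lowest colistin values there were 121.1 and 115.8. With mice of both BeadChips in the fit, the calls of Myl9 and Mrvi1 held in each of 22 alternative settings. These settings reuse the arrays and the contrast that chose the genes, so they show dependence on the settings and add no support. With 3 mice a group, Myl9 and Mrvi1 were both called on BeadChip 2 alone and neither on BeadChip 1 alone. The call of Des held in 11 of the 22, on neither BeadChip alone, and was lost, among others, on leaving out colistin mouse 2, 3, 5 or 6 or saline mouse 4 or 5, while its difference stayed negative.

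**Figure D1:**
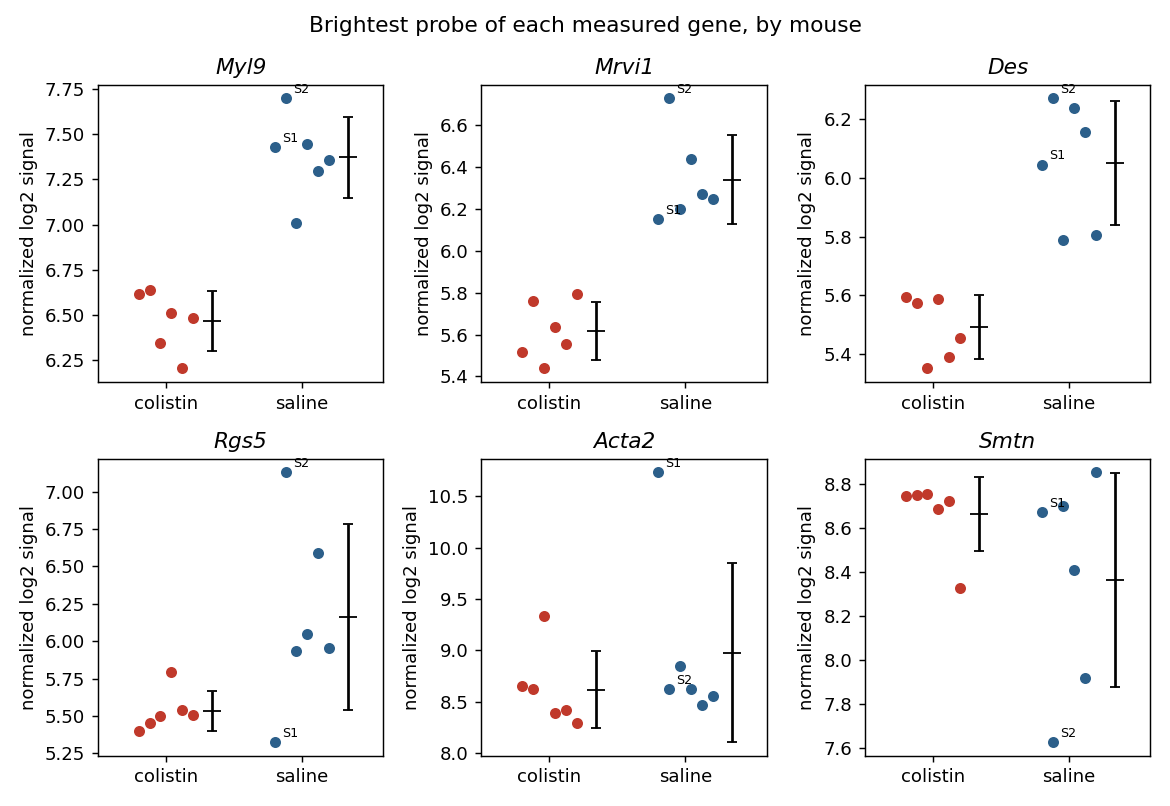
Normalised log2 signal of the brightest probe of each measured gene in 6 colistin mice (left, red) and 6 saline mice (right, blue). Each point is 1 mouse and the bars are the mean and SD, with saline mice 1 and 2 marked S1 and S2. The groups are apart for Myl9, Mrvi1 and Des and overlap for Rgs5, Acta2 and Smtn.

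Rgs5 (chromosome 1), which shortens G protein signals and marks pericytes and arterial smooth muscle, spread widely among saline mice. Its log2 signals were 5.40, 5.50 and 5.79 in colistin mice against 5.33, 6.00 and 7.13 in saline mice (lowest, median, highest). Saline mouse 1 was below every colistin mouse and the other 5 saline mice were above every one. The difference was -0.63 ± 0.22 (SE) and was not called. Without saline mouse 1 it was -0.80 ± 0.19 (SE) and was called, in a fit where 330 of 16179 probes (2.04%) were called. Without saline mouse 2, the highest, it was -0.44, and without saline mice 2 and 5 it was -0.28, not called in either case. Leaving out the lowest saline mouse had to enlarge the Rgs5 difference, and leaving out the highest had to reduce it. In the fit without saline mouse 1, 5 of the 12 smooth muscle probes were called lower: both probes of Myl9 and those of Mrvi1, Des and Rgs5.

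Acta2, the smooth muscle alpha-actin gene on chromosome 19, gave no called difference at any of its 4 measured probes. The brightest, ILMN_2693895, had 8.29, 8.52 and 9.34 log2 signal in colistin mice against 8.47, 8.62 and 10.74 in saline mice. The groups overlapped, with 1 mouse of each far above its group: colistin mouse 3 at 9.34, and saline mouse 1 at 10.74. The difference was -0.36 ± 0.33 (SE) with all mice and -0.01 ± 0.16 (SE) without saline mouse 1. The other 3 probes differed by -0.53 ± 0.28, -0.38 ± 0.20 and -0.16 ± 0.24 (SE), and without saline mouse 1 by -0.25 ± 0.17, -0.18 ± 0.13 and 0.10 ± 0.13 (SE). Saline mouse 1 was the highest mouse at all 4 probes. The remaining Acta2 probe was above background on 0 arrays.

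Smtn (chromosome 11), which encodes the actin-binding protein smoothelin, was the 1 measured gene whose probes all had higher means in colistin mice, and none was called. Its brightest probe, ILMN_2695181, had 8.33, 8.73 and 8.75 in colistin mice against 7.62, 8.54 and 8.85 in saline mice. The groups overlapped, and saline mice 2 and 5 were the lowest, at 7.62 and 7.92. The differences at its 3 probes were 0.30 ± 0.19, 0.23 ± 0.13 and 0.19 ± 0.18 (SE). Without saline mice 2 and 5 they were 0.0046, 0.099 and -0.076. As those were the lowest saline mice, smaller differences had to follow on leaving them out.

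**Figure D2:**
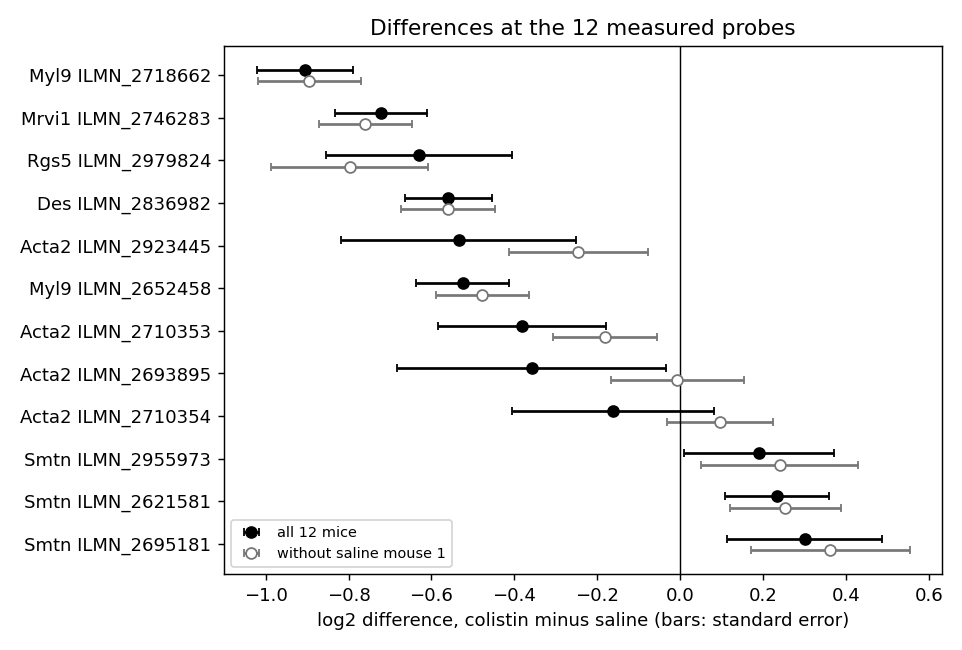
Log2 difference, colistin minus saline, at each of the 12 measured probes, with the standard error as bars. Filled points use all 12 mice and open points leave out saline mouse 1. Both probes of Myl9 and those of Mrvi1 and Des change little without that mouse, while the brightest Acta2 probe goes to -0.01.

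The 4 remaining genes were near or below background. Myh11, the smooth muscle myosin heavy chain, was detected at ILMN_2622217 in colistin mice 1 and 3 and saline mouse 1. Its signal was 6.89 in the saline mouse and lay between 4.41 and 4.89 in the rest of the mice. Actg2, the gamma-actin of visceral smooth muscle (chromosome 6), was detected in saline mouse 1 alone, also at 6.89, with 4.14 to 4.50 elsewhere. That mouse was thus the highest of all 12 for Acta2, Myh11 and Actg2. Tagln, which encodes the actin-bundling protein transgelin, was detected in saline mouse 2 alone, at 5.24. Cnn1, the calponin gene, was detected on 0 arrays, with 4.23 to 4.49 log2 signal. No fold is given for these 4 genes.

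Saline mouse 1 and colistin mouse 3 also had the highest signals of the fat cell gene Cfd within their groups. Cfd, which encodes the secreted protease adipsin, had 4.38, 5.92 and 9.19 log2 signal in colistin mice and 4.36, 5.42 and 11.64 in saline mice (lowest, median, highest). Of the fat cell genes on the array, 4 of 8 were detected in colistin mouse 3 and 5 of 8 in saline mouse 1, while each remaining mouse had 0 to 2. Within groups, Acta2 and Cfd had a Pearson r of 0.88 over 12 mice (exact permutation p = 0.0160, 0.0957 after adjustment over the 6 measured genes). Spearman's rank correlation was 0.34 (exact permutation p = 0.317, 0.950 after adjustment). Without these 2 mice r was -0.08 (exact permutation p = 0.840), so the relation rests on them. Within group and BeadChip it was 0.85 (exact permutation p = 0.100). This relation was computed after the 2 mice had been seen to stand apart.

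**Figure D3:**
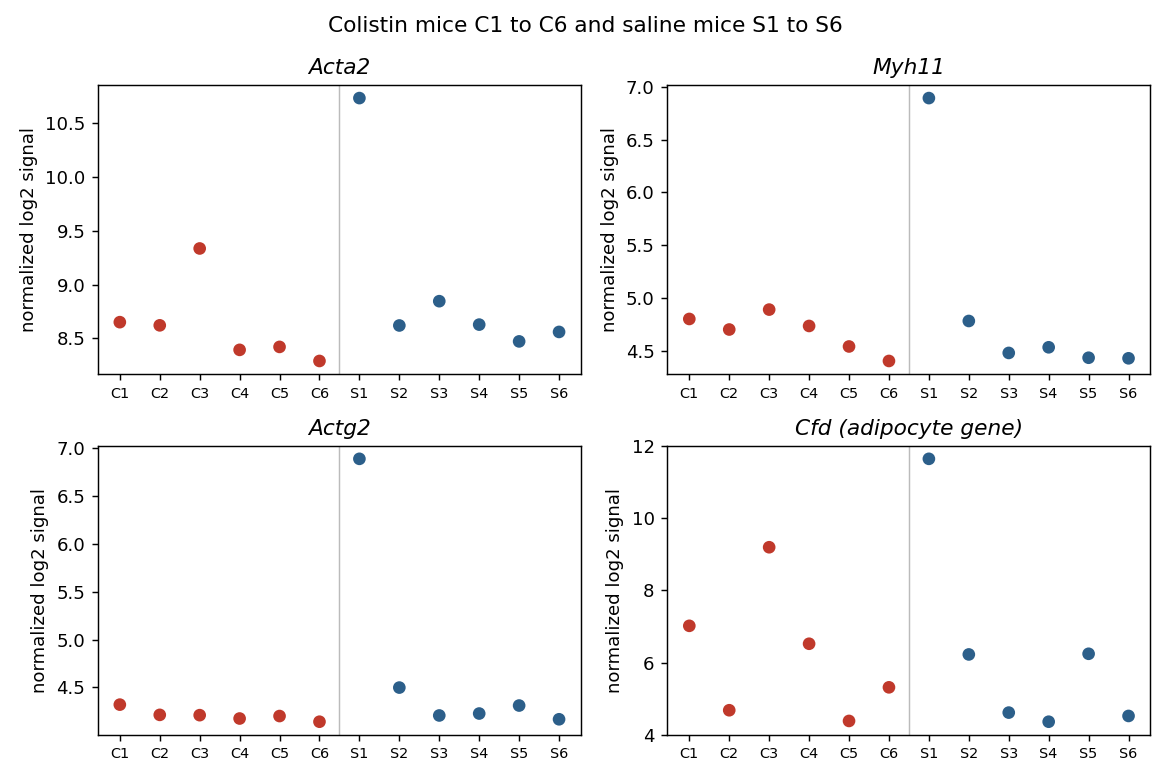
Normalised log2 signal of Acta2, Myh11, Actg2 and the fat cell gene Cfd in each mouse, colistin mice C1 to C6 (red) left of saline mice S1 to S6 (blue). Saline mouse 1 is the highest in each panel, at 10.74 for Acta2, 6.89 for Myh11 and Actg2 and 11.64 for Cfd.

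The 2 BeadChips, each with 3 mice of each group, gave close differences for the called probes. Myl9 at ILMN_2718662 differed by -0.98 on the first and -0.83 on the second, Mrvi1 by -0.70 and -0.75, and Des by -0.56 on both. At these probes all colistin mice lay below all saline mice, so a negative difference on each BeadChip had to follow and adds no support. Rgs5 differed by -0.52 and -0.75. Acta2 at ILMN_2693895 differed by -1.03 on the first BeadChip, which held saline mouse 1, and by 0.32 on the second, which held colistin mouse 3. Its treatment by BeadChip interaction was 1.35 ± 0.59 (SE), with a limma p of 0.0405 and an adjusted p near 1. The interaction was called at 0 of the 16179 probes (0%), with 412 at an unadjusted p under 0.05, and 2 of the 12 smooth muscle probes, both of Acta2, were among these.

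**Figure D4:**
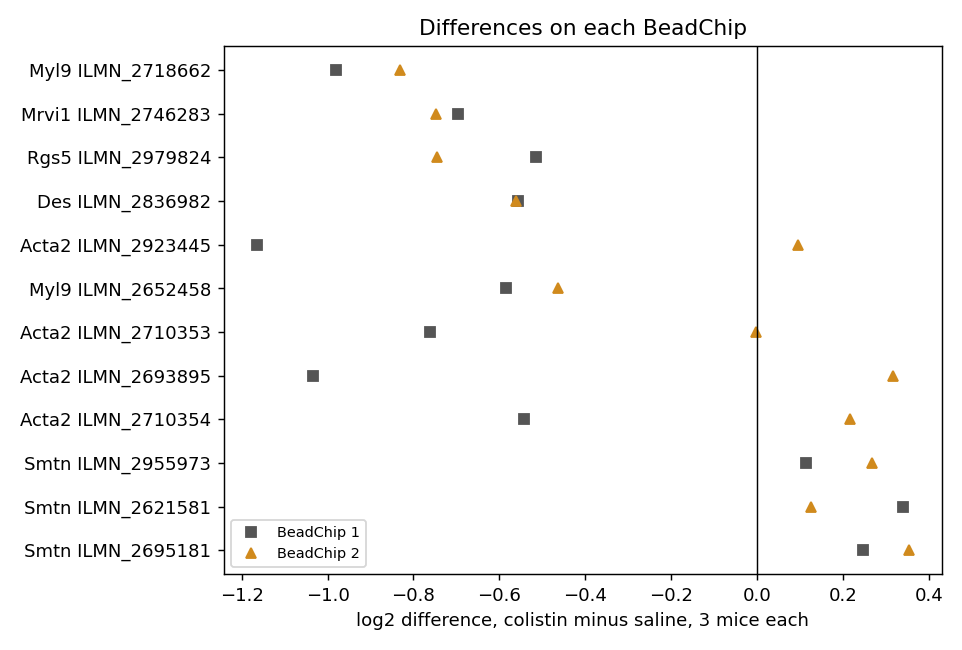
Log2 difference, colistin minus saline, at each measured probe on BeadChip 1 (squares) and BeadChip 2 (triangles), with 3 mice of each group on each. The symbols lie close together for Myl9, Mrvi1 and Des, and on either side of 0 for 3 of the 4 Acta2 probes.

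How the genes moved together from mouse to mouse was tested on deviations from each group's own mean, which do not use the difference between the groups. Of the 5 other measured genes, none covaried with Acta2 after adjustment, whether by Pearson or by Spearman (exact permutation of mice within groups, 12 mice). Myl9 had an r of 0.00 with Acta2 (exact permutation p = 0.994), and Des one of -0.14 (exact permutation p = 0.813). Rgs5 had an r of -0.65 (exact permutation p = 0.138, adjusted 0.437), which was -0.35 without the 2 mice farthest from the Acta2 median. Mrvi1 had one of -0.49 and Smtn one of 0.38. Probes of 1 gene did move together, with r of 0.79 to 0.94 among Acta2 probes, 0.63 to 0.97 among Smtn probes and 0.70 between the Myl9 probes. Over all 15 pairs of the 6 genes, a set added after seeing the data, 8 had an r above 0, 5 had an unadjusted p under 0.05 and none passed after adjustment. The highest r was that of Myl9 with Des, at 0.76 (exact permutation p = 0.00422, adjusted 0.0633), with a Spearman correlation of 0.80 (adjusted 0.0836) and an r of 0.69 without the 2 mice farthest from the Myl9 median. The lowest was that of Smtn with Rgs5, at -0.82 (exact permutation p = 0.0138, adjusted 0.0921), which was -0.12 without saline mice 2 and 5.

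**Figure D5:**
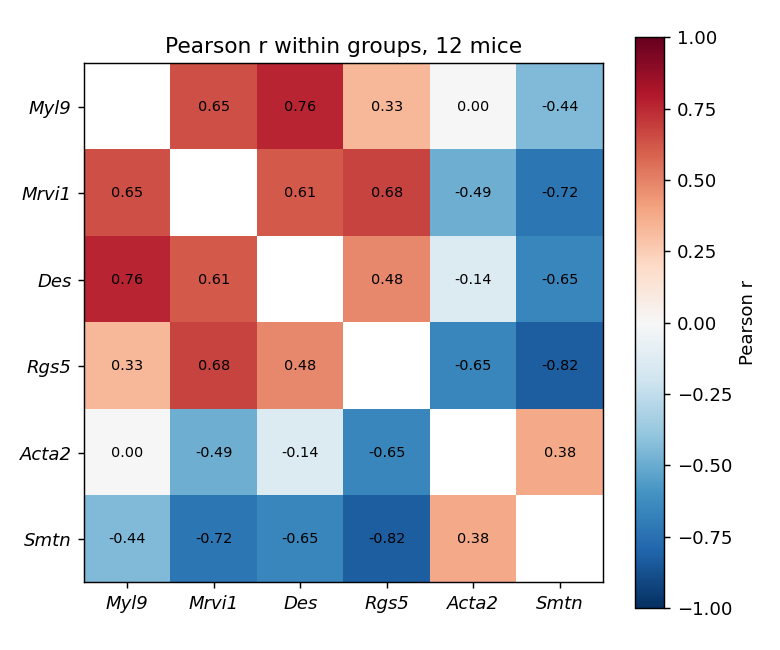
Pearson r between the 6 measured genes, over 12 mice as deviations from their own group's mean, from blue (negative) to red (positive). The values among Myl9, Mrvi1 and Des are positive, with 0.76 between Myl9 and Des, and none passed after adjustment. Mrvi1 has 0.65 with Myl9 and 0.61 with Des, which are 0.40 and 0.48 without saline mice 2 and 5. Rgs5 has 0.33 with Myl9 and 0.48 with Des, which are -0.23 and -0.04 without saline mice 2 and 5.

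Among 11830 genes outside the set, the 5 most like the mean deviation of the 6 genes over the 12 mice were Fbln2 (Pearson r 0.93), Serpinf1 (0.82), Scara5 (0.81), Smpd4 (0.80) and Lum (0.79). Fbln2 encodes the matrix protein fibulin 2, and Lum the collagen-binding proteoglycan lumican. None was called between groups. Their log2 differences were 0.04 ± 0.14, -0.67 ± 0.24, -0.12 ± 0.16, 0.01 ± 0.13 and -0.41 ± 0.18 (SE). Fbln2 was near background, with log2 means of 4.60 in colistin mice and 4.56 in saline mice. The lowest detected signal of any array was 4.74. Lum was also dim, at 4.55 in colistin mice and 4.96 in saline mice. The 6 genes did not move as 1 set, with a median r of 0.00 over their 15 pairs. These r values of the 5 genes are the highest of a search and are a description.

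Other genes of smooth muscle contraction gave 0 calls in the limma fit over all 12 mice. Of 23 further genes of the contractile apparatus 15 were measured, 9 of them with a difference below 0 and a median log2 difference of -0.16. Actn1 and Hspb6 were among those higher in mean in colistin mice, by 0.33 ± 0.12 and 0.30 ± 0.22 (SE). The 2 of the 15 with the smallest p were Ppp1r14a, an inhibitor of myosin light chain phosphatase, and Aebp1, a secreted protein of smooth muscle and fibroblasts. Ppp1r14a was detected on 0 of 6 colistin and 4 of 6 saline arrays, so it passed the limit on dim probes through the saline mice alone. Its difference is given no test, though it is part of that median. Its log2 means were 4.51 ± 0.11 in colistin mice and 4.93 ± 0.20 in saline mice (SD, n = 6 each). Aebp1 differed by -0.35 ± 0.11 (SE, limma adjusted p = 0.255). Of 15 regulators of the serum response factor pathway 6 were measured, with a median of -0.03, and Myocd, Mkl1 and Mkl2 were not detected. In this list Fhl2, a LIM-domain cofactor, differed by -0.80 ± 0.21 (SE, limma adjusted p = 0.159).

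Of 18 genes of cyclic GMP, calcium and receptor signalling, the pathway in which Mrvi1 acts, 12 were measured, 7 of them with a difference below 0 and a median of -0.19. Gucy1a3, a subunit of the nitric oxide receptor that makes cyclic GMP, had 7.49 ± 0.24 log2 signal in colistin mice and 8.73 ± 0.82 in saline mice (SD, n = 6 each), a difference of -1.24 ± 0.29 (SE, limma adjusted p = 0.0892). Agtr1a, the angiotensin II receptor, had 8.02 ± 0.19 in colistin mice and 8.49 ± 0.16 in saline mice, a difference of -0.47 ± 0.11 (SE, limma adjusted p = 0.0827). It was called without saline mice 2 and 5 (-0.56 ± 0.10, SE, limma adjusted p = 0.0230). Without saline mouse 1, a setting added for these lists after seeing the data, Prkg1, the cyclic GMP-dependent kinase that acts on the Mrvi1 protein, and Gucy1a3, Ednra and Npr3 were called lower, by 0.98, 1.49, 0.66 and 0.81 on the log2 scale. Fhl2 and Aebp1 were also called lower in that fit.

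The related genes of non-muscle cells and of striated muscle showed no call. Of 14 non-muscle paralogues 11 were measured, with a median of -0.07. Myl12b, the non-muscle counterpart of Myl9, differed by -0.21 ± 0.08 (SE, limma adjusted p = 0.388) and Tagln2, the counterpart of Tagln, by 0.31 ± 0.12 (SE, limma adjusted p = 0.393). Of 14 striated muscle genes 12 were detected on 0 arrays and 1, Mylpf, was measured, with -0.15 ± 0.12 (SE, limma adjusted p = 0.639).

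Marker genes of the cell types that lie beside or share genes with smooth muscle were mostly lower in mean in colistin mice, and none was called with all 12 mice. Of 11 pericyte and mesangial markers 8 were measured, all 8 with a difference below 0 and a median of -0.20. The largest after Gucy1a3 was that of Pdgfrb, the platelet-derived growth factor receptor of these cells, at -0.71 ± 0.16 (SE, limma adjusted p = 0.0782). Cspg4, Gata3 and Abcc9 differed by -0.01, -0.04 and -0.09. The summed linear signal of the 8 ranged from 472 to 554 in colistin mice and from 507 to 1579 in saline mice, with saline mouse 1 at the low end and saline mouse 2 at the high end, as for Rgs5. Gucy1a3, also in the cyclic GMP list, was the brightest of the 8 and weighs most in this sum. Endothelial markers were below 0 for 12 of 12 measured genes (median -0.45), and their summed signal was 2822 to 3952 in colistin mice and 2379 to 6602 in saline mice, again lowest in saline mouse 1 and highest in saline mouse 2. Cd34 and Cdh5, of endothelial surface and junctions, differed by -0.52 ± 0.15 and -0.46 ± 0.14 (SE, limma adjusted p = 0.199 and 0.234). For fibroblasts the median of 7 measured markers was -0.46, and the summed signal was 798 to 1222 in colistin mice and 1260 to 3518 in saline mice. Col1a2, part of this median and sum, was detected on 0 of 6 colistin and 4 of 6 saline arrays. It passed the limit on dim probes through the saline mice alone. Col1a1 differed by 0.01 ± 0.14 (SE), and the 6 others were below 0. Dcn and Pdgfra, of matrix and growth factor signalling, differed by -0.78 ± 0.21 and -0.97 ± 0.28 (SE, limma adjusted p = 0.163 and 0.209). Dcn was the brightest of the fibroblast markers and weighs most in their sum.

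For macrophages the median of 7 measured markers was -0.42, with 6 of them below 0. The summed signal was 343 to 442 in colistin mice and 421 to 688 in saline mice. Csf1r went the other way, at 0.15 ± 0.15 (SE, limma adjusted p = 0.699). Emr1, part of this median and sum, was detected on 1 of 6 colistin and 4 of 6 saline arrays. The macrophage complement genes C1qc and C1qb differed by -0.48 ± 0.13 and -0.51 ± 0.16 (SE, limma adjusted p = 0.159 and 0.263). The fat cell list had 2 measured markers, Cfd and Car3, and a summed signal of 45.5 to 618 in colistin mice and 47.9 to 3329 in saline mice. The 2 renin cell genes, which juxtaglomerular cells of the arterioles express, differed by 0.30 ± 0.42 for Ren1 and -0.03 ± 0.19 for Akr1b7 (SE, limma adjusted p = 0.781 and 0.962). The 3 measured urothelial markers had a median of -0.13, with -0.27 ± 0.37 for Upk1b and -0.13 ± 0.21 for Upk3b (SE, limma adjusted p = 0.780 and 0.814). The proximal tubule markers, a check of the tissue, were measured for 6 of 6 genes with a median of 0.06, with 0.22 ± 0.14 for Aqp1 and 0.18 ± 0.20 for Slc22a6 (SE, limma adjusted p = 0.569 and 0.726). Without saline mouse 1, 18 genes of all these lists were called, all lower in colistin mice, with 8 of the 12 measured endothelial genes among them. In that fit 330 of all 16179 probes (2.04%) were called. That mouse had the lowest endothelial sum of all mice, and this setting was added after seeing the data. The 18 genes include Ppp1r14a, which passed the limit on dim probes through the saline mice alone. The part of these cell types in the differences of Myl9, Mrvi1 and Des was not tested.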

How the data were processed

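Whole-kidney RNA of 12 mice, grouped by the sample titles into 6 colistin and 6 saline, was measured on 1-colour BeadChips. The authors deposited mean bead intensities of 45281 probes per array on a linear scale, and beside these the detection p-values. This is per the file headers. The authors also deposited normalised intensities. The submitters' processing notes name GenomeStudio and Partek, with no settings stated.

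Intensities were background-corrected from the detection p-values, given an offset of 16, quantile-normalised and put on the log2 scale with neqc in limma 3.58.1 (R 4.3.3). The offset compresses differences of dim probes. A probe was kept (16179 were) where its detection p was under 0.01 on 4 or more arrays. Groups were compared with lmFit and eBayes, two-sided, with group as the only term and Benjamini-Hochberg adjustment over all kept probes, called at an adjusted p under 0.05. The precision is limited by the number of arrays.

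Covariation was tested by exact permutation over 518400 pairings of mice within groups, two-sided. The brightest kept probe stood for each gene. All member probes were named, and of each further list up to 3 called genes or otherwise the 2 with the smallest p, besides the 5 genes most like the members. Of the genes this rule takes, 1 is not reported here. The members and lists were chosen with earlier results of these data known. Of 150 list entries 142 matched the array by symbol, 3 by synonym and 5 not at all. The fit was tested on simulated data. Array weights, background, scaling, filter, BeadChip, replicate number, threshold and single mice were varied. Array correlations lay between 0.931 and 0.995, with no duplicate.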

Additional observations from a re-analysis of the deposited data

Results flagged for a closer look

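Of 24 groups of 6 mice at the 12 measured probes, 8 had 1 mouse farther from the rest than Dixon's limit of 0.625 for the gap over the range. Chance gives about 1 in 20 for independent groups. These groups are not independent, because probes of 1 gene moved together, so no excess is read from the count. For Acta2 at ILMN_2693895, 1 mouse of each group stood apart. Colistin mouse 3 was at 9.34 log2 signal against 8.29 to 8.65 in the other colistin mice. Saline mouse 1 was at 10.7 against 8.47 to 8.85 in the other saline mice. Colistin mouse 3 also stood apart at the Acta2 probe ILMN_2923445, at 6.71 against 5.89 to 6.07. Saline mouse 1 stood apart at the Acta2 probes ILMN_2710354, at 6.66 against 4.86 to 5.51, and ILMN_2710353, at 6.17 against 4.79 to 5.11. Smtn was low in colistin mouse 6 at ILMN_2695181, at 8.33 against 8.69 to 8.75, and at ILMN_2955973, at 7.50 against 7.95 to 8.17. Rgs5 was high in colistin mouse 4, at 5.79 against 5.40 to 5.54. No mouse of either group stood apart in this way at the probes of Myl9, Des or Mrvi1.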

How the results depend on the processing

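Of 292 alternative values of the differences at the 12 smooth muscle probes, 275 moved by less than 1 SD of the replicates, 17 moved further and 0 reversed a called difference. Without background correction Myl9 at ILMN_2718662 was -0.55, Des -0.24 and Mrvi1 -0.33. The authors' normalised values were raised to at least 16 before the log2. On them Des was -0.79 per probe and per gene, and Mrvi1 -0.97 per probe and -0.40 per gene. The deposited gene-level means of Mrvi1 were 10.9 in colistin mice, below that floor, and 21.4 in saline mice, a ratio of 0.51. Why Des and the Mrvi1 probe differed more than in the fit reported was not tested. On BeadChip 1 alone Myl9, Mrvi1 and Des lost their calls, and on BeadChip 2 alone Des did, with 3 mice a group. The number of smooth muscle probes called, 3 in the fit reported, was 2 to 5 on leaving out each mouse in turn, 5 without saline mouse 1, 5 with array weights, and 2 to 4 in the others. The count over all probes, 74, was 25 without background correction, 45 at an offset of 50, 37 on the authors' normalised values, 27 for probes detected on all 12 arrays, 33 with no filter, 471 with array weights, 27 at an adjusted p under 0.01 and 138 at one under 0.1. Leaving out each mouse in turn it was 38, without saline mouse 4, to 330, without saline mouse 1. Colistin mice 2, 3, 5 and 6 and saline mice 4 and 6 also moved it by over 1.5 times, and the cause was not tested. The list and marker genes called, 0 with all mice, were 1 without saline mice 2 and 5 and 18 without saline mouse 1. The interaction and covariation counts were 0 in every alternative run for them. The replicate numbers gave no sign of pairing the mice: same-numbered mice had correlations of -0.26 to 0.12. Same-numbered mice always lay on different BeadChips, so these values cannot exclude a pairing. With the replicate block 36 probes and 2 smooth muscle probes were called, without Des. A dim signal limits Tagln, Myh11, Cnn1 and Actg2, which were near background on nearly all arrays. The called probes of Des and Mrvi1 were also dim. Their raw signals were 113.1 to 146.3 and 116.2 to 165.9, against array medians of 88.1 to 97.2 over all probes.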
